A study of Mus musculus with 6 samples.

Results

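The complement system was examined as a module of 32 genes among the 55385 genes counted in mouse liver. The members were taken from a fixed list of symbols, matched through the gene identifiers to GENCODE M21, and all 32 were found. They were divided by the cell that is best known to make each product: 22 hepatocyte-made genes, 7 macrophage-made genes and 3 genes of other or several sources. This division is textbook knowledge and was not measured in these whole-liver libraries. Poly(A) RNA came from the livers of 3 male mice after a sham operation (libraries 1 to 3) and 3 after vertical sleeve gastrectomy (VSG, libraries 4 to 6), in which the greater part of the stomach is cut away. All 6 mice carried no engineered allele as far as the labels say, and the study's methods name wild-type C57BL/6 males. All were put on a high-fat diet (HFD) at 6 to 8 weeks of age, fed it for 10 weeks before the operation and kept on it for 12 weeks afterwards. Both groups therefore share the diet and an operation, and no lean or unoperated liver was analysed here.

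Complement is a cascade of plasma proteins that marks microbes and damaged cells for removal. Antibody (the classical pathway) or sugars on a surface (the lectin pathway) start it through serine proteases that cleave C4 and C2, while the alternative pathway amplifies it through factor B, factor D and properdin. All 3 routes cleave C3, and the cascade then runs through C5 to the pore built by C5b, C6, C7, C8 and C9. The liver is the main source of most of the plasma components, several of which are acute phase proteins, whereas C1q is made chiefly by macrophages and dendritic cells.

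Total counts ran from 22804397 to 24191778 per library. Counts of mitochondrial genes made up 5.59% to 6.58% in sham and 4.14% to 5.01% in VSG liver, all VSG libraries below all sham libraries. Of 9 hepatocyte markers, all abundant, Fgb rose (log2 fold change 2.36, adjusted p = 0.00783) and 8 did not pass, among which Serpina1a was higher and Ttr and Ass1 were lower in all VSG libraries. Their summed level, mostly Alb, overlapped between the groups with and without Alb. The 12 neutrophil markers were all higher after VSG, with a summed level of 5.43 to 21.6 FPKM (CPM divided by exon length in kilobases) in sham and 185, 973 and 2211 FPKM in VSG 5, VSG 6 and VSG 4. Without sham 2, sham 3 or VSG 6 the 12 calls became 2, 1 and 1, with all 12 higher at an unadjusted p under 0.05 each time. Their part in the results below was not tested. In whole tissue, more or fewer cells of a type and more or less RNA per cell cannot be told apart.

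Of the 32 members, 31 had enough reads to be tested and 14 rose after VSG, 1 fell and 16 did not pass the test (edgeR quasi-likelihood test, Benjamini-Hochberg adjusted p under 0.05 over all 14454 genes tested). Over all genes tested, 14.7% passed, 6.79% higher and 7.87% lower (981 and 1137 genes, or 486 and 1512 with total counts in place of TMM factors). The median log2 fold change of the tested members was 0.82, beside 0.03 over all genes tested. In 20 members every VSG library lay above every sham library and in 1 every VSG library lay below. Over all genes tested, the groups did not overlap in 39.6%. At an unadjusted p under 0.05, 33.9% of all genes tested passed, 16.9% higher and 17.0% lower. Among the 22 hepatocyte-made members, 12 rose and 0 fell (17 and 0 at an unadjusted p under 0.05), with a median log2 fold change of 0.96. Among the 7 macrophage-made members, 1 rose and 0 fell (2 and 0 at an unadjusted p under 0.05), with a median of 0.59. The number of calls rested heavily on single libraries. Without sham 3 no member passed edgeR's adjusted threshold, although 16 were higher and 1 was lower at an unadjusted p under 0.05 (11.1% and 12.1% of all genes in the same fit). Without VSG 6 only Fcna passed, with 17 higher and 2 lower at the unadjusted threshold (13.1% and 12.9% of all genes). DESeq2 on all 6 libraries called 22 members, 20 higher and 2 lower, beside 18.7% of the 17381 genes it gave an adjusted p, 8.73% higher and 9.98% lower.

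**Figure D1:**
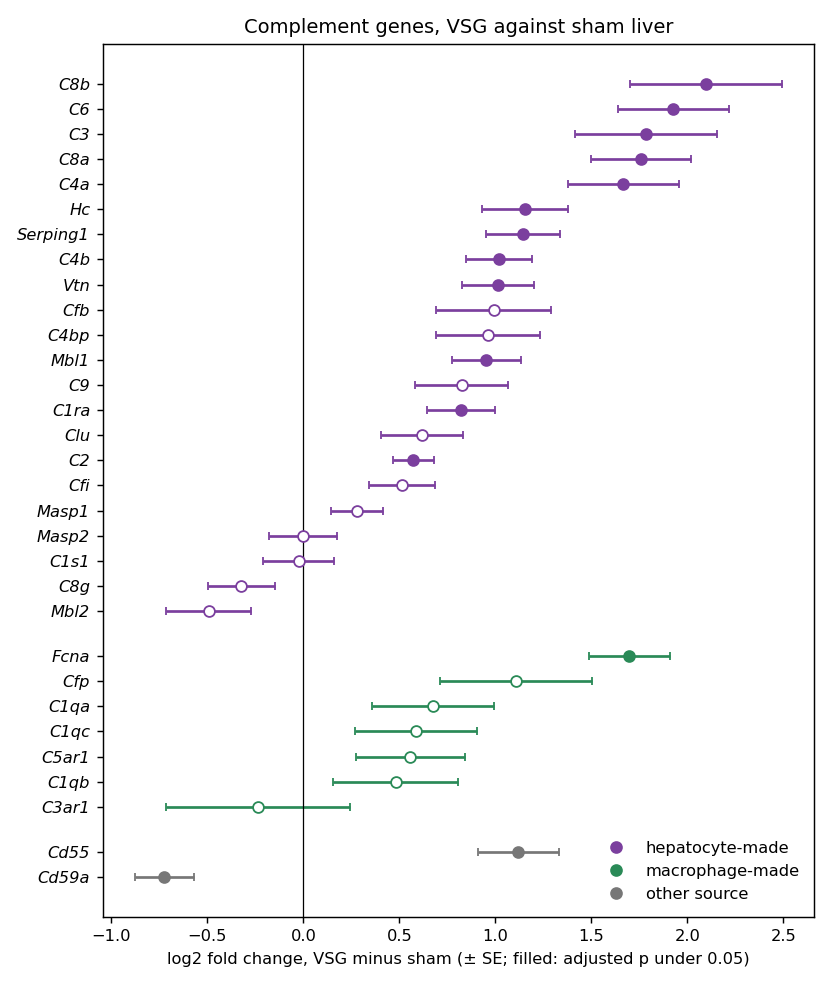
Log2 fold change of each tested member, VSG minus sham (x axis), with its standard error as the bar. Filled points passed the adjusted p of 0.05; colours give the source. C8b, C6, C3, C8a and C4a lie farthest to the right among the hepatocyte-made genes, Fcna is the only filled macrophage-made gene, and Cd59a is the only filled point left of 0.

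C3, on which all pathways meet, was the most abundant member in both groups. Its level was 8991, 8906 and 7484 CPM (counts scaled to library size with TMM factors) in sham 1 to 3 and 35714, 20307 and 31538.5 CPM in VSG 4 to 6. All VSG libraries lay above all sham libraries, and VSG 5 was the lowest of the 3. The log2 fold change was 1.79 (SE 0.370, adjusted p = 0.0275), with means of 8460 ± 846 and 29187 ± 7968 CPM (SD, n = 3). C3 alone took 0.890% ± 0.122 of all counts in sham and 2.77% ± 0.723 in VSG liver. Leaving out any single library other than VSG 5 brought its adjusted p to between 0.0585 and 0.140, with a log2 fold change of 1.62 to 1.83.

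The other genes of the alternative pathway were far lower. Cfb, encoding factor B, the protease of the alternative C3 convertase, gave 5.05, 6.53 and 6.79 CPM in sham and 18.0, 8.88 and 9.63 CPM in VSG liver. The groups did not overlap, but the log2 fold change of 0.99 (SE 0.299) missed the threshold at an adjusted p of 0.0690. The level of Cfb is uncertain, because 2246 of its 2825 exon bases lie also in Gm20547, a gene of the same strand that spans Cfb and its neighbour C2 and was listed at 0 counts in all 6 libraries. If only the 579 unshared bases yielded counts, Cfb had 10.6 ± 1.62 FPKM in sham and 21.04 ± 8.78 in VSG liver. Cfp, encoding properdin, which stabilises that convertase, belongs to the macrophage-made genes below. Cfd, encoding factor D or adipsin, is made chiefly by fat cells and was too low to test. Its counts were 2, 66 and 42 in sham and 0, 4 and 4 in VSG liver, so sham 1 was as low as the VSG libraries. Of 6 fat cell markers, Adipoq, Lep, Retn and Plin1 had 0 to 2 counts in every library and Adrb3 rose (log2 fold change 0.87, adjusted p = 0.0431). Car3, which hepatocytes also express, had 37305, 94263 and 66933 counts in sham and 857, 14224 and 2912 in VSG liver, lower in all VSG libraries (adjusted p = 0.0666), and made up nearly all of the summed level of the list, 958 ± 514 FPKM in sham and 94.5 ± 107 in VSG liver. The part of fat cells in the counts of Cfd was not tested.

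In the classical pathway, 4 of 8 members rose after VSG and 0 fell (4 and 0 at an unadjusted p under 0.05). C4b, which encodes the main C4 chain, gave 1185, 1128 and 1286 CPM in sham and 2527, 2263 and 2505 CPM in VSG liver. The spread within each group was small beside the gap between them, and the log2 fold change was 1.02 (SE 0.172, adjusted p = 0.0170). C4a, the neighbouring copy known in mice as sex-limited protein, was much lower, at 14.5, 16.0 and 10.7 CPM in sham and 44.2, 27.8 and 58.8 CPM in VSG liver (log2 fold change 1.67, SE 0.290, adjusted p = 0.0185). The annotation lists C4a as a processed transcript, and 30.6% of its 50-base windows also occur in C4b, so reads of the abundant copy could be counted for the rare one. The C4a to C4b ratio of FPKM was 0.0113, 0.0130 and 0.00764 in sham and 0.0161, 0.0113 and 0.0215 in VSG liver, which overlapped.

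C2, encoding the protease that joins C4b in the classical and lectin C3 convertase, rose least among the called members. It had 36.7, 35.3 and 42.6 CPM in sham and 61.5, 54.9 and 54.3 CPM in VSG liver (log2 fold change 0.57, SE 0.108, adjusted p = 0.0218). With total counts in place of TMM scaling its adjusted p was 0.116. C2 shares 1656 of its 3872 exon bases with Gm20547, so its level per length carries the same doubt as that of Cfb.

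The genes of the C1 proteases did not move together. C1ra, encoding C1r, gave 118.5, 145 and 127 CPM in sham and 227, 185 and 280 CPM in VSG liver, without overlap (log2 fold change 0.82, SE 0.177, adjusted p = 0.0301). C1s1, encoding C1s, the protease that C1r activates, gave 555, 629 and 637 CPM in sham and 524, 526 and 740 CPM in VSG liver. Its log2 fold change of -0.02 (SE 0.185, adjusted p = 0.937) lay well within the spread, and VSG 6 was the highest of all 6 libraries. The C1ra to C1s1 ratio of FPKM was 0.224, 0.242 and 0.210 in sham and 0.455, 0.369 and 0.397 in VSG liver, with no overlap. Both genes have near copies, and 50.8% of the 50-base windows of C1ra and 21.8% of those of C1s1 also occur in other genes, chiefly C1rb and C1s2. These copies averaged at most 0.135 CPM in either group.

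In the lectin pathway, 2 of 5 members rose (Mbl1 and the macrophage-made Fcna) and 0 fell (2 and 0 at an unadjusted p under 0.05). Mbl1 and Mbl2 encode the A and C forms of mannose-binding lectin, which recognise sugars on microbes. Mbl1 gave 131, 192 and 137 CPM in sham and 268, 297 and 326 CPM in VSG liver (log2 fold change 0.95, SE 0.180, adjusted p = 0.0219). Mbl2 gave 264, 353 and 245.5 CPM in sham and 202, 157 and 253 CPM in VSG liver, where VSG 6 lay above sham 3, and the difference of -0.49 on the log2 scale (SE 0.221) missed the threshold at an adjusted p of 0.167.

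Within each library the balance of the lectins differed between the groups. The Mbl1 to Mbl2 ratio of FPKM was 0.345, 0.377 and 0.387 in sham and 0.921, 1.31 and 0.894 in VSG liver. Mbl2 thus had the higher level per length in every sham library, and in VSG 5 Mbl1 did. Masp1 and Masp2 encode the proteases bound to these lectins and showed smaller differences. Masp1 had means of 256 ± 28.5 and 310 ± 24.1 CPM (log2 fold change 0.28, adjusted p = 0.195), all VSG libraries above all sham libraries. Masp2 had means of 268.5 ± 46.1 and 268 ± 36.5 CPM (log2 fold change -0.00, SE 0.176). In Masp2, 1817 of 3307 exon bases lie opposite Tardbp, and the strand setting of the counting was not stated.

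The terminal pathway had the largest median among the role groups at 1.46 on the log2 scale, with 4 of 6 members higher and 0 lower (5 and 0 at an unadjusted p under 0.05). Hc, encoding C5, whose cleavage starts pore formation, gave 1329, 1090.5 and 1030 CPM in sham and 2035, 2640 and 3008 CPM in VSG liver (log2 fold change 1.16, SE 0.225, adjusted p = 0.0236). C6, encoding the next component, gave 138, 90.7 and 68.0 CPM in sham and 296, 402 and 432 CPM in VSG liver (log2 fold change 1.93, SE 0.289, adjusted p = 0.0134). The lowest VSG library of C6 stood above the highest sham library, and VSG 4, the highest library for C3, was the lowest VSG library for both genes.

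C8 is a complex of 3 chains encoded by C8a, C8b and C8g. C8a gave 503, 458 and 319 CPM in sham and 1075, 1685 and 1574 CPM in VSG liver (log2 fold change 1.76, SE 0.260, adjusted p = 0.0130). C8b gave 95.6, 112 and 49.6 CPM in sham and 217, 477 and 407 CPM in VSG liver (log2 fold change 2.098, SE 0.396, adjusted p = 0.0219). C8g, whose product is a lipocalin rather than a pore-forming chain, gave 134, 188.5 and 155 CPM in sham and 108, 147 and 127 CPM in VSG liver. The groups overlapped, and the difference of -0.32 on the log2 scale (SE 0.174) gave an adjusted p of 0.233. C8a and C8b are neighbours on chromosome 4, with 11131 bases between them and opposite strands, while C8g lies on chromosome 2.

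The C8a to C8g ratio of FPKM was 1.54, 0.997 and 0.845 in sham and 4.10, 4.70 and 5.10 in VSG liver. The C8b to C8g ratio was 0.418, 0.349 and 0.188 in sham and 1.18, 1.90 and 1.89 in VSG liver. The C8a to C8b ratio overlapped between the groups, with means of 3.68 ± 0.823 and 2.88 ± 0.524. C9, which polymerises to form the wall of the pore, gave 513, 297 and 330 CPM in sham and 605, 629 and 786 CPM in VSG liver. All VSG libraries lay above all sham libraries, but the log2 fold change of 0.82 (SE 0.244) missed the threshold (adjusted p = 0.0659). Without sham 1, the highest sham library, it was 1.10 with an adjusted p of 0.0370. C7, a gene outside the 32 members, stood at 2.77 ± 0.611 and 4.07 ± 2.21 CPM (adjusted p = 0.386).

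**Figure D2:**
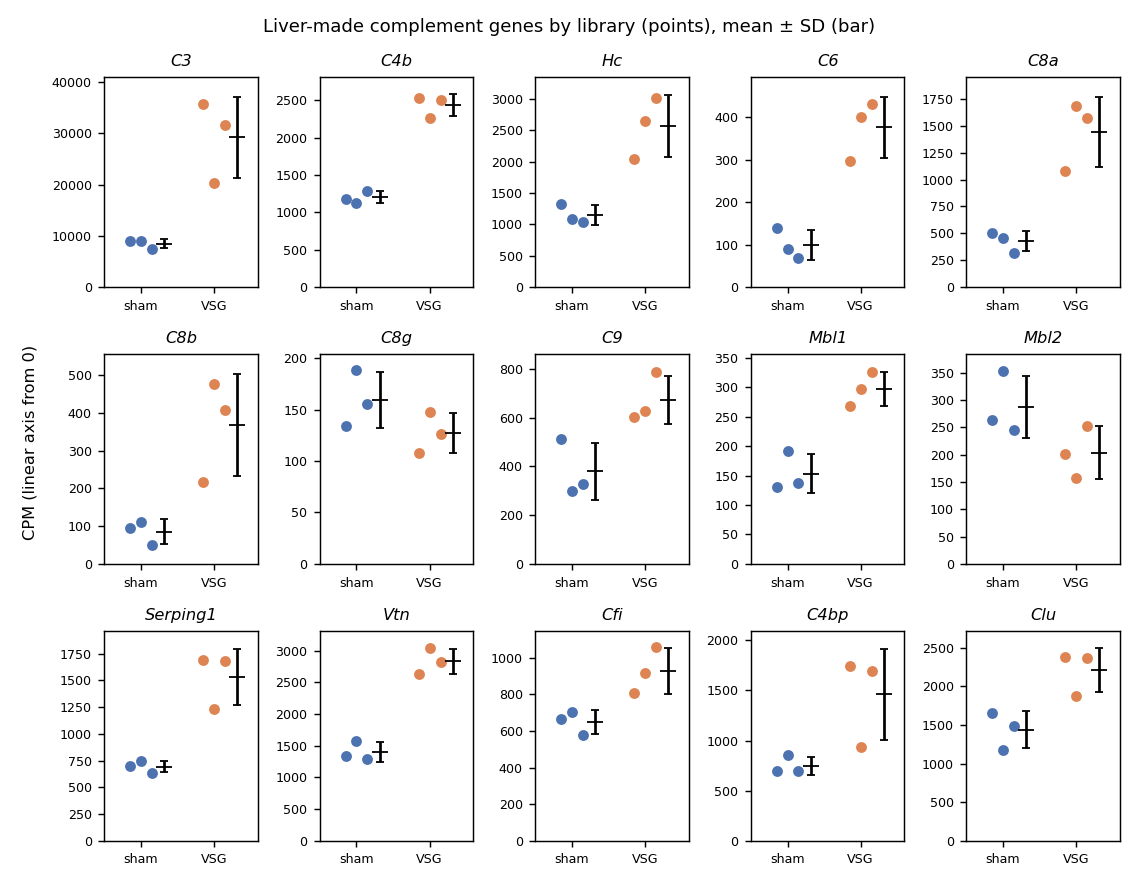
CPM of 15 hepatocyte-made genes in each library (points, linear axes from 0) with the mean ± SD of 3 libraries beside them. C8g and Mbl2 overlap between sham and VSG, while C6, C8a, C8b and Mbl1 do not.

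Promoter sequence is shown for C6 and C8a, members of the terminal pathway that rose. Members were picked for print by passing the test and holding a motif of an acute phase factor (STAT or C/EBP) in the stretch shown. Sequences are from RefSeq on GRCm38.p6, the assembly of the mm10 build, 5′ to 3′ on the gene's strand, and cover bases 250 to 51 before the annotated start. C6 lies at chr15:4726960-4727159 on the plus strand and C8a at chr4:104876449-104876648 on the minus strand. Capitals mark the C/EBP motif TTGCNNCAA in C6 and the STAT motif TTCNNNGAA in C8a.
C6: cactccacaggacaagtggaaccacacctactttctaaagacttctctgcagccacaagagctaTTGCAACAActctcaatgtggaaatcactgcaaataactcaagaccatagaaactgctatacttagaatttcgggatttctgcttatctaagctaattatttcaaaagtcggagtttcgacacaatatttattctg
C8a: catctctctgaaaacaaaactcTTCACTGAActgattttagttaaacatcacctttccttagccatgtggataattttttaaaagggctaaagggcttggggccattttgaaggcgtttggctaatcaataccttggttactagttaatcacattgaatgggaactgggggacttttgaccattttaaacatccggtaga

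A window of 300 bases (250 before to 50 after the start) was at hand for 23 of the 32 members and was searched on both strands. The STAT motif was found in 4 of the 23, in C8a, Masp2, C1ra and Vtn (17.4%), beside 9.55% of all 27025 genes with a window. Of these 4, Masp2 did not pass the test and the other genes rose. The C/EBP motif was found in C6 alone (4.35%, beside 2.38% of all genes). The NF-kB motif GGGNNTTCC was found in Cd55 alone (4.35%, beside 6.58%). The core of the interferon-stimulated response element, GAAANNGAA, was found in Cd59a, C5ar1 and Vtn (3 of 23, beside 9.76% of all genes). C8b and C3 rose too (log2 fold change 2.098 and 1.79), and their windows held none of these motifs. A match of letters is a description and not a binding site.

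All 5 soluble regulators had every VSG library above every sham library, and 2 of them, Serping1 and Vtn, passed the test, with 0 lower (5 and 0 at an unadjusted p under 0.05). Serping1, encoding C1 inhibitor, which blocks C1r, C1s and the MASP proteases, gave 701, 743 and 635 CPM in sham and 1686, 1229 and 1678 CPM in VSG liver (log2 fold change 1.14, SE 0.191, adjusted p = 0.0168). Vtn, encoding vitronectin, which keeps the terminal complex from entering membranes, gave 1340, 1572 and 1284 CPM in sham and 2624, 3033 and 2827 CPM in VSG liver (log2 fold change 1.02, SE 0.188, adjusted p = 0.0214). The mean CPM after VSG was 2.21 times that of sham for Serping1 and 2.02 times for Vtn.

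The remaining soluble regulators did not pass. C4bp, encoding the C4b-binding protein, had a log2 fold change of 0.96 (SE 0.271, adjusted p = 0.0588), and VSG 5, at 939 CPM, stood close to sham 2, at 855 CPM. Without VSG 5 it was 1.18 with an adjusted p of 0.0139. Clu, encoding clusterin, had a log2 fold change of 0.62 (SE 0.213, adjusted p = 0.0943) and Cfi, encoding factor I, the protease that inactivates C3b and C4b, one of 0.51 (SE 0.170, adjusted p = 0.0871). DESeq2 called C4bp, Clu and Cfi higher (adjusted p = 0.00446, 0.0124 and 0.0221). The Cfi to C3 ratio of FPKM was 0.171, 0.183 and 0.179 in sham and 0.0525, 0.104 and 0.0777 in VSG liver, with no overlap.

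The 2 membrane regulators among the members, Cd55 and Cd59a, went in opposite directions. Such regulators protect the liver's own cells. Cd55, encoding decay-accelerating factor, which takes apart C3 convertases, gave 16.2, 15.3 and 13.7 CPM in sham and 40.5, 22.9 and 34.8 CPM in VSG liver (log2 fold change 1.12, SE 0.212, adjusted p = 0.0220). Cd59a, encoding the surface protein that blocks the addition of C9, fell and was the only member to do so, from 50.5, 60.6 and 63.6 CPM in sham to 28.9, 36.5 and 40.4 CPM in VSG liver (log2 fold change -0.72, SE 0.153, adjusted p = 0.0287). The groups overlapped in neither gene. Cd55 missed the threshold without sham 1, sham 2, sham 3 or VSG 6, and Cd59a without sham 2, sham 3, VSG 4 or VSG 6. Membrane regulators outside the members did not pass. They were Cr1l (log2 fold change 0.0013, adjusted p = 0.992), Cd46 (0.51, adjusted p = 0.204) and Cd59b (-1.25, adjusted p = 0.0678). Cd55 and Cd59a are expressed by many cell types, and which cells gave these reads was not measured.

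**Figure D3:**
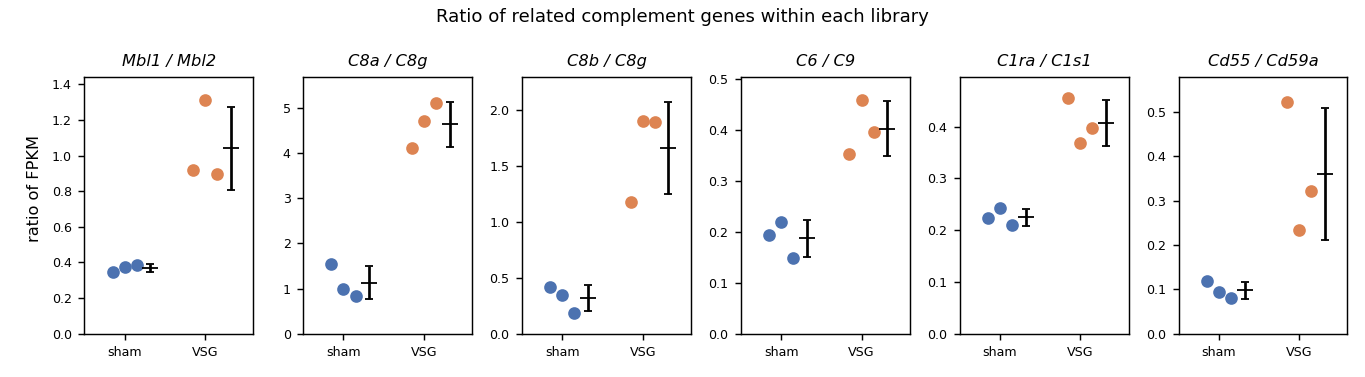
Ratio of FPKM of related complement genes within each library (points, linear axes from 0), with mean ± SD of 3 libraries. In all 6 ratios shown, the VSG libraries lie above the sham libraries; the ratios were chosen with the values of the members known.

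Among the macrophage-made genes, sham and VSG libraries overlapped in 6 of 7, where 39.6% of all genes tested had no overlap. C1qa, C1qb and C1qc encode the 3 chains of C1q, which recognises antibody on a surface, and lie side by side on chromosome 4. C1qa gave 77.8, 44.9 and 63.0 CPM in sham and 137, 61.6 and 98.1 CPM in VSG liver (log2 fold change 0.67, SE 0.318, adjusted p = 0.186). C1qb gave 92.4, 50.5 and 77.2 CPM in sham and 141.5, 65.0 and 101 CPM in VSG liver (log2 fold change 0.48, SE 0.324, adjusted p = 0.330). C1qc gave 83.3, 45.9 and 68.2 CPM in sham and 139, 65.3 and 92.5 CPM in VSG liver (log2 fold change 0.59, SE 0.318, adjusted p = 0.237). In all 3 genes VSG 5 lay within the sham range, sham 2 was the lowest library and VSG 4 the highest.

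Fcna, encoding ficolin A, a lectin made by macrophages of liver and spleen, was the one macrophage-made member that rose. It gave 16.8, 21.5 and 19.2 CPM in sham and 81.8, 49.1 and 55.2 CPM in VSG liver (log2 fold change 1.70, SE 0.212, adjusted p = 0.00888). Fcna also had the smallest adjusted p of all members, and it missed the threshold only without sham 3 (adjusted p = 0.0556). Cfp, encoding properdin and also expressed by neutrophils, gave 38.4, 18.8 and 25.0 CPM in sham and 87.0, 32.6 and 57.8 CPM in VSG liver (log2 fold change 1.11, SE 0.396, adjusted p = 0.103). Cfp passed with DESeq2 (adjusted p = 0.0370) and with edgeR without VSG 5 (adjusted p = 0.0347). VSG 4 was the highest library for Cfp and for Fcna, and also for the summed neutrophil markers, monocyte markers and macrophage markers.

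The receptors of the released fragments of C3 and C5 sit on macrophages and neutrophils, and neither passed the test (0 of 2 at an unadjusted p under 0.05 also, and 0 of 2 by DESeq2). C3ar1 gave 28.8, 7.21 and 16.2 CPM in sham and 20.4, 11.6 and 12.5 CPM in VSG liver (log2 fold change -0.24, SE 0.480, adjusted p = 0.751). Without sham 1 the sign turned, to 0.33. C5ar1 gave 7.45, 5.20 and 5.47 CPM in sham and 12.1, 5.94 and 8.67 CPM in VSG liver (log2 fold change 0.56, SE 0.285, adjusted p = 0.215). Both are thus low in these livers, and sham 1 had the highest C3ar1 level of all 6 libraries.

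**Figure D4:**
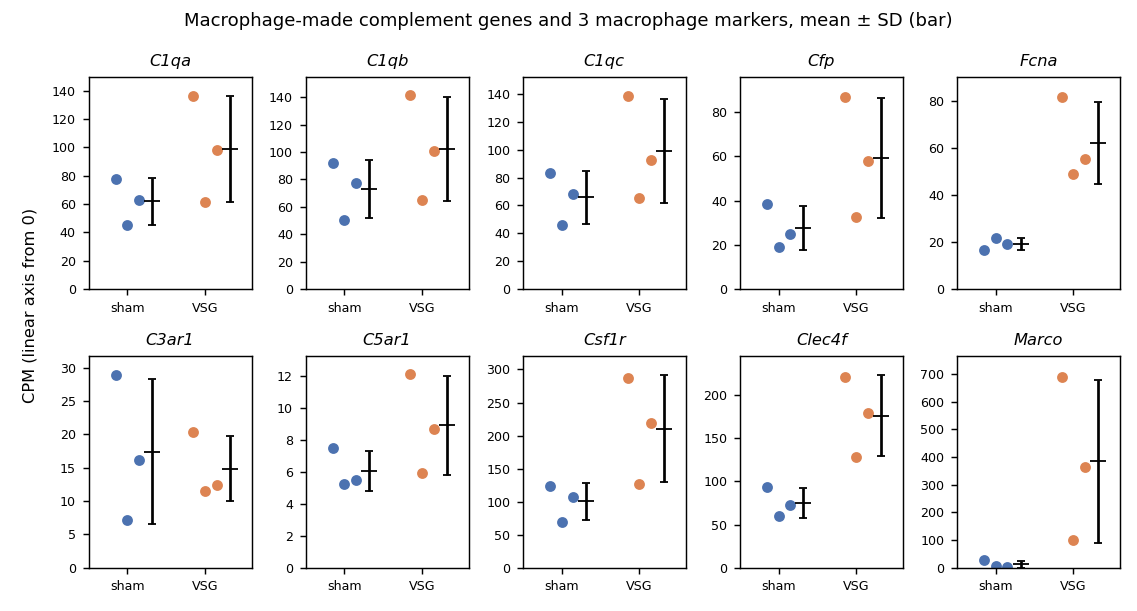
CPM of the 7 macrophage-made members and of the macrophage markers Csf1r, Clec4f and Marco in each library (points, linear axes from 0), with mean ± SD of 3 libraries. Fcna is the only one of the 7 members without overlap, whereas none of the 3 markers overlaps between the groups.

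The contrast between the sources was read from summed FPKM, a level per length. The 22 hepatocyte-made members summed to 5166, 5256 and 4589 FPKM in sham and 12548, 9700 and 12608 FPKM in VSG liver, a ratio of the means of 2.32. C3 made up much of this, and without it the sums were 3418, 3524.5 and 3134 FPKM in sham and 5604, 5751 and 6476 FPKM in VSG liver, a ratio of 1.77. The groups did not overlap in either sum. C3 supplied 31.4% ± 1.07 of the summed FPKM of all members in sham and 46.8% ± 6.81 in VSG liver.

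The 7 macrophage-made members summed to 247, 144 and 201 FPKM in sham and 452, 212 and 314 FPKM in VSG liver, a ratio of the means of 1.66 with overlap between the groups. The hepatocyte-made to macrophage-made ratio within a library was 20.9, 36.6 and 22.8 in sham and 27.7, 45.7 and 40.1 in VSG liver. These values overlapped, so the data do not show that the balance of the sources differed between sham and VSG liver. Without C3 the ratio had means of 18.0 ± 5.75 and 20.02 ± 7.37. With 3 libraries a group, an exact two-sided permutation test of 1 value cannot go below 0.1, and none was made.

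**Figure D5:**
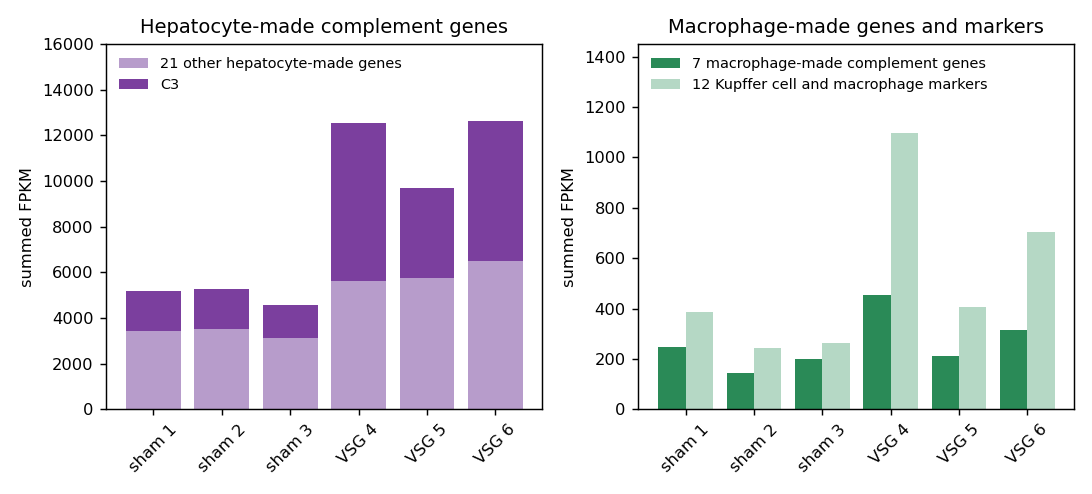
Summed FPKM per library. Left, the 22 hepatocyte-made members with C3 as the upper part of each bar; right, the 7 macrophage-made members beside 12 Kupffer cell and macrophage markers. The left bars of VSG 4 to 6 exceed those of sham 1 to 3, while the dark bar of VSG 5 at 212 FPKM lies below that of sham 1 at 247 FPKM.

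Markers of macrophages were higher after VSG too. Of 12 Kupffer cell and macrophage markers, 6 rose (Marco, Clec4f, Cd163, Folr2, Timd4 and Vsig4) and 0 fell (8 and 0 at an unadjusted p under 0.05). Their summed level was 244 to 387 FPKM in sham and 406 to 1095 FPKM in VSG liver, without overlap. Without Marco it was 241 to 374 FPKM in sham and 354 to 738 FPKM in VSG liver, and the groups overlapped. Csf1r, the receptor that marks most macrophages, averaged 101 and 211 CPM and did not pass (adjusted p = 0.0766). The 6 calls became 1 without sham 2, 0 without sham 3, 3 without VSG 4 and 0 without VSG 6, with 7 or 8 markers higher at an unadjusted p under 0.05 in each of these fits (11.1% to 13.8% of all genes). Of 8 monocyte markers, Chil3 (log2 fold change 4.98, adjusted p = 0.0326) and F13a1 (3.43, adjusted p = 0.0165) rose, and the summed level of 124 ± 76.6 FPKM in sham and 336 ± 206 in VSG liver overlapped between the groups. Of 8 dendritic cell markers, Siglech fell (log2 fold change -1.77, adjusted p = 0.0397), and the summed level of 4.68 ± 0.403 and 4.16 ± 0.375 FPKM overlapped. Neither monocyte nor dendritic cell calls remained without sham 2, sham 3 or VSG 6. The part of macrophages, monocytes and dendritic cells in the values of C1q, Cfp and Fcna was not tested.

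Relative to these markers, the outcome depended on the marker and the member. The ratio of the summed members to the summed markers was 0.637, 0.588 and 0.765 in sham and 0.413, 0.523 and 0.447 in VSG liver. This gap rested on Marco, since without Marco in the marker sum the ratio was 0.661, 0.596 and 0.771 in sham and 0.613, 0.600 and 0.611 in VSG liver, which overlapped, whereas leaving out any other single marker kept all VSG libraries below all sham libraries. The summed C1q genes over Csf1r gave 9.42, 9.34 and 8.97 in sham and 6.71, 6.99 and 6.19 in VSG liver, a narrow range within each group. Taken over each of the 12 markers in turn, the C1q sum gave lower ratios in all VSG libraries for 8, overlap for 3 (Adgre1, Cd68 and Slc40a1) and higher ratios for 1. The ratios were picked after the values had been seen. Fcna over Csf1r (means 0.869 and 1.30) and Cfp over Csf1r (means 0.899 and 0.915) overlapped between the groups, and C3ar1 over Csf1r and C5ar1 over Csf1r were lower in all VSG libraries.

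Of 30 further complement genes on a second list, 29 were in the table and 24 were tested, with 5 higher and 2 lower after VSG. Over all genes tested, 6.79% were called higher and 7.87% lower, so the 2 lower genes were near that share. These 7 calls became 1 without sham 3 and 3 without VSG 6. Apcs and Crp, encoding pentraxins that bind C1q, were among the genes that rose. Apcs, the gene of serum amyloid P, an acute phase protein of mice, gave 87.0, 103 and 86.5 CPM in sham and 2212, 727 and 1559 CPM in VSG liver (log2 fold change 4.02, SE 0.427, adjusted p = 0.00645). Crp, the gene of C-reactive protein, gave 298, 363 and 308 CPM in sham and 609, 517 and 667 CPM in VSG liver (log2 fold change 0.89, SE 0.159, adjusted p = 0.0200). VSG 5 was the lowest VSG library for both genes, as it was for C3, Serping1, C4bp and Fcna.

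Vsig4, the Kupffer cell receptor for C3b that also stands on the macrophage marker list, rose with a log2 fold change of 1.51 (SE 0.368, adjusted p = 0.0405). Fcnb, encoding ficolin B, which neutrophil precursors make, had 1, 0 and 0 counts in sham and 172, 11 and 69 in VSG 4 to 6 (adjusted p = 0.0230). Across the VSG libraries this was the order of the summed neutrophil markers, and of the summed monocyte and macrophage markers too. The genes that fell were Colec11 and C1qbp. Colec11, encoding a lectin of the same pathway as Mbl1 and also on the stellate cell marker list, averaged 49.8 and 23.5 CPM (log2 fold change -1.08, SE 0.137, adjusted p = 0.00921). On that list of 8 markers, Colec11 and Reln fell, 7 were lower at an unadjusted p under 0.05, and the summed level was 136 ± 24.6 FPKM in sham and 70.4 ± 20.2 in VSG liver, without overlap. The 2 calls on the list became 0 without sham 3, 1 without sham 1, 1 without VSG 6, 4 without VSG 5 and 6 with DESeq2. The 7 at an unadjusted p under 0.05 became 3 without sham 1, sham 3, VSG 4 or VSG 6. They were 7 without sham 2 and 8 without VSG 5. The part of stellate cells in the value of Colec11 was not tested. C1qbp, encoding a mitochondrial protein first found by its binding to C1q, averaged 69.1 and 48.8 CPM (log2 fold change -0.50, SE 0.133, adjusted p = 0.0498).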

How the data were processed

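The deposited table held raw counts of reads for each gene in all 6 libraries. Per the study's methods and the submitters' processing notes, the authors made strand-specific poly(A) libraries, checked reads with FastQC 0.10.1, aligned them with STAR 2.6.0 to mm10 and counted them with featureCounts (2.0.3 in the notes, another release in the methods). The release of the annotation, the strand setting and the handling of multi-mapping reads and of overlapping genes are not given in the sources used here. Of 55385 identifiers, 54487 equalled GENCODE M21 with version, 55144 matched without it and 241 did not.

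After filterByExpr (minimum count 10, minimum total 15), edgeR 4.0.16 (R 4.3.3) was run (quasi-likelihood, TMM factors 0.897 to 1.15, group as the only term), with Benjamini-Hochberg adjustment over 14454 genes. SE is the log2 fold change divided by the square root of F. FPKM used the deposited exon length. Each library is 1 animal per the methods. A floor of 3 counts equals 0.111 to 0.143 CPM and covers counting error only. Alternatives were DESeq2 1.42.0, limma 3.58.1 (voom, or log2(FPKM + 1)), RLE factors, total counts, no filter, at least 10 counts in every library and leaving out each library. The length of C2 and Cfb without shared bases and the ratios to macrophage markers, with each marker left out in turn, were added after seeing the data. The procedure was tested on simulated data with the same spread for all genes. It recovered 98% of 4-fold changes but only 47% of 2-fold changes.

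The members and lists were chosen with earlier results of these data known. Members past the threshold and macrophage-made members are given in full, the others by counts or by values that a group needs, and other complement genes where they passed, except that some items are not reported here.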

Additional observations from a re-analysis of the deposited data

How the results depend on the processing

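Over all genes, edgeR called 2118 of 14454 and DESeq2 called 3252 of 17381, with 2104 shared, and leaving out 1 library gave 159 to 2732 calls. Calls split into 981 higher and 1137 lower, and with total counts in place of TMM factors into 486 and 1512. The 15 called members became 0 to 18 without 1 library (0 without sham 3, 1 without VSG 6, 8 without sham 2, 9 without sham 1). The 12 hepatocyte-made calls became 0 to 14 (0 without sham 3 and 0 without VSG 6, where 14 and 15 were higher at an unadjusted p under 0.05), 6 without sham 1 and 7 without sham 2. The 1 macrophage-made call became 0 to 2 and was 2 with DESeq2. The 7 other complement calls became 1 to 9 and were 11 with DESeq2. The smaller groups leave fewer samples to the fit. The cause of the other changes was not tested. Among members, the sign turned in C1s1 (-0.21 to 0.061 without 1 library, above 0 without sham 3, VSG 4 or VSG 5), Masp2 (0.0029 with limma on log2(FPKM + 1), 0.0037 with at least 10 counts in every library, and -0.13 to 0.12 without 1 library, above 0 without sham 2, sham 3 or VSG 4) and C3ar1 (-0.61 to 0.33 without 1 library, above 0 without sham 1), none of them called. The log2 difference of summed FPKM was 1.21 for hepatocyte-made members (1.14 to 1.33 without 1 library) and 0.69 for macrophage-made members (0.43 to 0.97). Cfd was tested under 6 alternatives and passed in 2, with DESeq2 (adjusted p = 0.0208) and without sham 1 (adjusted p = 0.0387). No paired analysis was possible because the groups share no replicate number.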
